A study of Oryza sativa Japonica Group with 8 samples.

Results

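The genes described here are 6 rice loci assigned to the synthesis of pollen wall precursors: a pair of cytochrome P450 genes, a fatty acyl reductase gene, an acyl-CoA synthetase gene and a pair of polyketide synthase genes. They were found by locus ID among the 1174 genes that the authors listed as changed, of which 644 were listed as higher and 530 as lower in the knockdown. All 6 were in the lower list, which held 45.1% of the listed genes. Since a gene had to be called changed to be listed, that count follows from how the loci were found and carries no weight of its own. Messenger RNA came from young panicles, collected before heading from japonica rice grown in a paddy field, of wild type plants (3 libraries) and of a dcl3b knockdown mutant (3 libraries). In the mutant, expression of OsDCL3b, which codes for a Dicer-like enzyme that cuts double-stranded RNA into small RNAs, is reduced. The labels do not state how the knockdown was made, how many lines it comprises or whether libraries came from separate plants. The p-values below therefore measure the spread between these libraries, which may be technical.

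Sporopollenin is the resistant polymer of the outer pollen wall, the exine. Its building blocks are made in the tapetum, the layer of the anther wall that borders the pollen chamber, and pass from there to the surface of the young pollen grain. In the pathway known from Arabidopsis and rice, fatty acids are hydroxylated by cytochrome P450s and joined to coenzyme A by an acyl-CoA synthetase. Polyketide synthases of the chalcone synthase type then extend the acyl-CoA into polyketides, and a fatty acyl reductase turns a separate share of the fatty acyl pool into fatty alcohols. Lipids of the anther cuticle draw on the same early steps. Transporters of the ABC class and lipid transfer proteins move the products out of the tapetum.

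Levels are given in FPKM, fragments scaled to transcript length and library size, as the authors computed them, and no read depth is given for the mRNA libraries. The gene targeted in the mutant, LOC_Os10g34430 (Dicer in the files' descriptions), stood at 0.97, 0.98 and 0.88 FPKM in wild type replicates 1 to 3 and at 0.39, 0.50 and 0.44 FPKM in the knockdown. Among the genes listed as lower, knockdown replicate 2 was the highest knockdown library in 356 of 530 and wild type replicate 2 the lowest wild type library in 291 of 530, so replicate 2 of each genotype often lay nearest to the other genotype. Results on the 6 genes are given with and without these libraries where it matters. Genes outside the authors' lists were not analysed here, so the tissue label could be checked only against listed markers.

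All 6 genes were abundant in wild type panicles and fell in the knockdown to between 33.4% and 49.6% of the wild type mean. The lists hold no gene with an absolute deposited log2 fold change below 1. The upper end of this range therefore follows from listing, as does a summed difference of at least about that size. Summed over the 6, the level was 1736, 1982 and 1788 FPKM in wild type, against 522, 1141 and 749 FPKM in the knockdown. That is 1835 ± 129.6 against 804 ± 313 FPKM (SD, n = 3 each), a 2.28-fold difference of the means. The highest knockdown library lay below the lowest wild type library. The tissue was sampled in bulk, so fewer cells that express these genes and less RNA per cell cannot be told apart.

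Cytochrome P450 enzymes of this pathway hydroxylate fatty acids near its start. LOC_Os08g03682 stood at 256, 269.9 and 243 FPKM in wild type replicates 1 to 3 and at 51.8, 129.6 and 75.4 FPKM in knockdown replicates 1 to 3. No knockdown value reached the wild type range, with a 1.87-fold step between the nearest libraries of the genotypes. In the authors' deposited table its log2 fold change was -1.58 (adjusted p = 1.1e-08), the largest fall of the 6. LOC_Os03g07250 stood at 405, 443 and 422 FPKM in wild type, against 113.6, 252 and 176 FPKM in the knockdown, again without overlap. The authors' deposited table lists a log2 fold change of -1.23 (adjusted p = 1.02e-06).

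LOC_Os03g07140, described in the files as a male sterility protein and assigned to fatty acyl reduction, was the least abundant of the 6. It stood at 112.9, 153.5 and 126.3 FPKM in wild type, against 37.1, 84.4 and 57.0 FPKM in the knockdown. The genotypes did not overlap, but the gap between the nearest libraries was the narrowest of the 6 genes at 28.5 FPKM, a 1.34-fold step. In the authors' deposited table its log2 fold change was -1.14 (adjusted p = 4.73e-05).

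LOC_Os04g24530, described as an AMP-binding domain protein and assigned to the step that links fatty acids to coenzyme A, stood at 334, 380.3 and 360.3 FPKM in wild type, against 111, 241 and 161 FPKM in the knockdown, with every knockdown library below every wild type library. The authors' deposited table lists a log2 fold change of -1.06 (adjusted p = 3.86e-05).

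Polyketide synthases use the product of the acyl-CoA synthetase. LOC_Os10g34360, described as a stilbene synthase, had 449, 563 and 462 FPKM in wild type, against 167.8, 332 and 232 FPKM in the knockdown. It was the most abundant of all 1174 listed genes in wild type and had the smallest relative fall of the 6, listed in the authors' deposited table with a log2 fold change of -1.01 (adjusted p = 3.77e-05). LOC_Os07g22850, which the files place among chalcone and stilbene synthases, had 179, 172 and 174 FPKM in wild type, the tightest set of wild type values among the 6, and 41.2, 102.4 and 47.6 FPKM in the knockdown. The authors' deposited table lists a log2 fold change of -1.46 (adjusted p = 1.44e-06).

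**Figure D1:**
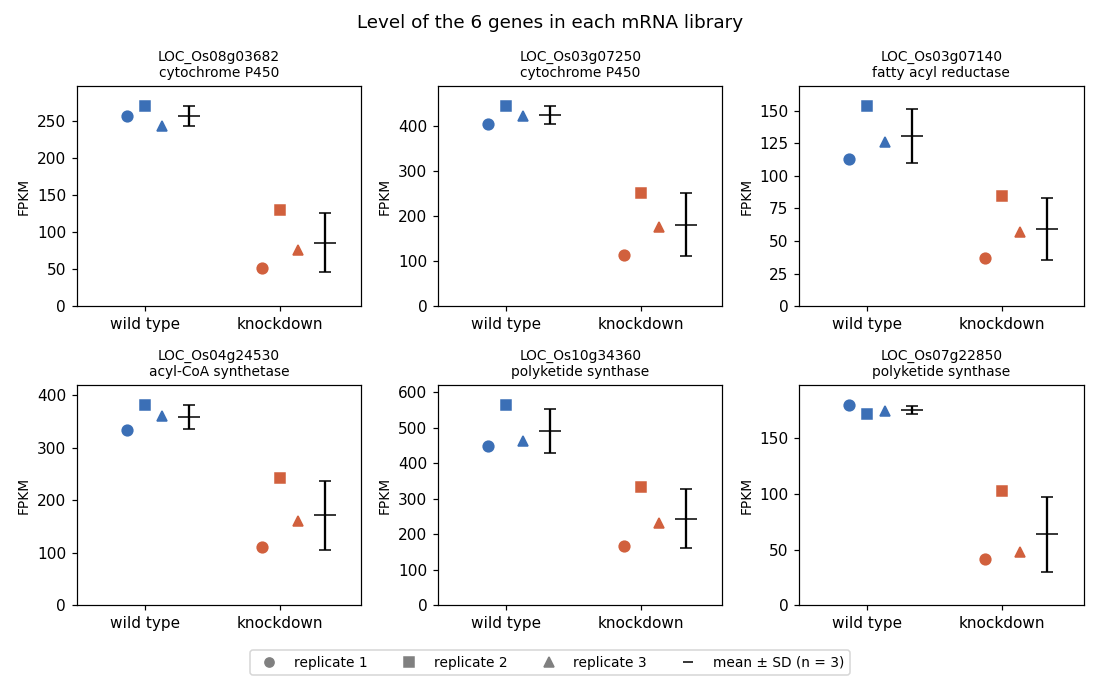
Level of each of the 6 genes in FPKM (linear axes from 0) in every wild type (blue) and knockdown (orange) library, with marker shape for the replicate number and the mean ± SD of 3 libraries in black. In each panel the 3 knockdown libraries lie below the 3 wild type libraries, and knockdown replicate 2 (square) is the highest of the knockdown.

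The listed genes were tested again on log2(FPKM + 0.5) with limma, which borrows the error estimate across genes, with Benjamini-Hochberg adjustment over all 1174. The genes had already been selected on these values, so the test serves to compare settings. The 6 genes passed it as lower, where 482 of the 1174 listed genes (41.1%) did and 84.9% passed in either direction. Knockdown values lay entirely below wild type values in 6 of 6, against 472 of the 530 genes listed as lower (89.1%) and 40.2% of all listed genes. On that scale LOC_Os08g03682 changed by -1.68 ± 0.33 (SE; limma adjusted p = 0.00845) and LOC_Os10g34360 by -1.06 ± 0.27 (limma adjusted p = 0.0162). The changes of the other 4 lay between these 2 changes. The largest limma adjusted p of the 6 was 0.0183, for LOC_Os03g07140. The SEs of the 6 changes were 0.27 to 0.35. They hold spread between libraries that the 6 genes share, so they do not measure how well the order of the falls is resolved. That order was not tested gene by gene. The median change of the 6 was -1.25, against -0.95 over the genes listed as lower and 0.29 over all listed genes. The pseudocount shrinks the changes of low genes, and in the authors' deposited table the order was the opposite, with medians of -1.18 for the 6 and -1.44 for the genes listed as lower. Without knockdown replicate 3, 3 of the 6 passed, while LOC_Os03g07140, LOC_Os04g24530 and LOC_Os10g34360 missed the threshold with limma adjusted p-values of 0.0577, 0.0544 and 0.0539. Without wild type replicate 3, LOC_Os03g07140 missed it (limma adjusted p = 0.0515). Without replicate 2 of both genotypes all 6 passed, with a median change of -1.46.

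Among the knockdown libraries, the shares of the 6 transcripts in their summed FPKM varied less than their levels: the coefficient of variation of the shares was 0.904% to 17%, and that of the levels 33.9% to 52.8%. In wild type the ranges were 2.75% to 8.82% for shares and 2.18% to 15.8% for levels, and the share of LOC_Os07g22850 varied more than its level (8.82% against 2.18%). LOC_Os10g34360 made up 25.8% to 28.4% of their summed FPKM in the wild type libraries and 29.1% to 32.1% in the knockdown. The share of LOC_Os04g24530 was 19.2% to 20.1% in wild type and 21.2% to 21.5% in the knockdown. For LOC_Os08g03682 the share was 13.6% to 14.8% in wild type and 9.91% to 11.4% in the knockdown. For these genes the genotypes did not overlap. The shares of LOC_Os03g07250 (23.1% ± 0.65 in wild type and 22.4% ± 0.94 in the knockdown; SD, n = 3), LOC_Os03g07140 (7.11% ± 0.62 and 7.37% ± 0.26) and LOC_Os07g22850 (9.58% ± 0.85 and 7.73% ± 1.31) overlapped. Shares sum to a whole, so a higher share of some genes implies a lower share of others.

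**Figure D2:**
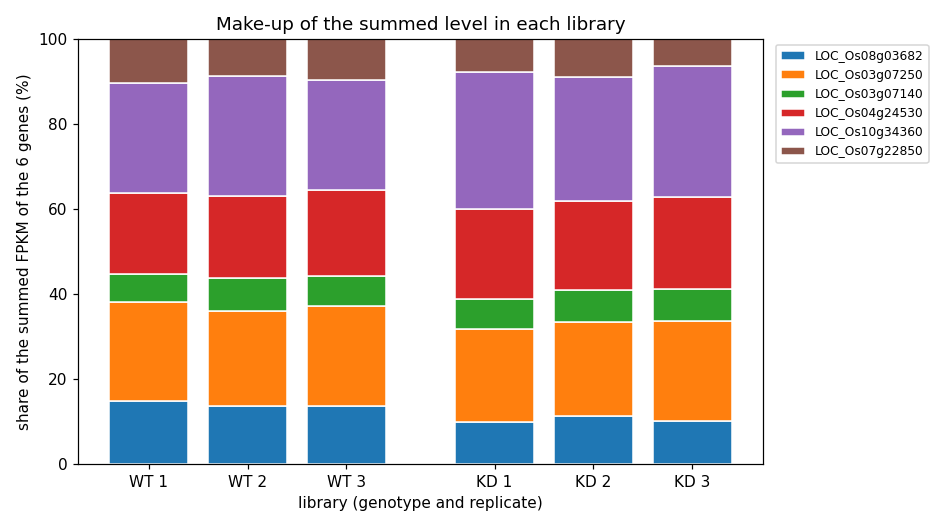
Share of each gene (colours) in the summed FPKM of the 6, in percent, for the 3 wild type and 3 knockdown libraries. The LOC_Os08g03682 block is smaller in the knockdown (9.91% to 11.4%) than in wild type (13.6% to 14.8%) and the LOC_Os10g34360 and LOC_Os04g24530 blocks are larger, while the LOC_Os07g22850 block runs from 6.35% in knockdown replicate 3 to 10.3% in wild type replicate 1.

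Ratios between enzymes of the same kind were compared next. The choice of the loci does not fix them, but they were chosen with earlier results known. With 3 against 3 libraries no outcome of the test could reach 0.05. The ratio of LOC_Os08g03682 to LOC_Os03g07250, both cytochrome P450 genes, was 0.633, 0.609 and 0.575 in wild type and 0.456, 0.515 and 0.428 in the knockdown. The knockdown ratios all lay below the wild type ratios, a difference of -0.38 ± 0.09 (SE) on the log2 scale. The exact two-sided permutation test gave p = 0.10, the smallest that 3 against 3 libraries allow, and 0.20 after Benjamini-Hochberg adjustment over the 2 ratios tested. The ratio of the polyketide synthase genes, LOC_Os07g22850 to LOC_Os10g34360, was 0.399, 0.305 and 0.378 in wild type and 0.245, 0.309 and 0.205 in the knockdown. Here knockdown replicate 2 lay above wild type replicate 2, and the difference of -0.52 ± 0.21 (SE) gave p = 0.20 in the exact permutation test, also 0.20 after adjustment. Neither ratio was shown to differ at this number of libraries. Without replicate 2 of both genotypes the log2 differences were -0.45 for the P450 genes and -0.79 for the polyketide synthase genes.

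The knockdown libraries differed among themselves far more than the wild type libraries did. Across the 6 genes the coefficient of variation was 2.18% to 15.8% in wild type and 33.9% to 52.8% in the knockdown. As a share of the wild type mean, the 6 genes stood at 20.2% to 34.2% in knockdown replicate 1, at 27.2% to 47.2% in replicate 3 and at 50.6% to 67.5% in replicate 2. The highest knockdown library exceeded the lowest by 1.98-fold to 2.50-fold, against 1.04-fold to 1.36-fold in wild type.

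All 6 genes placed the knockdown libraries in the same order, replicate 1 lowest, then 3, then 2. Of the genes listed as lower, 177 of 530 (33.4%) had that order, as did 23 of the 38 other lower genes above 50 FPKM in wild type. In wild type, replicate 2 was the highest wild type library in 5 of the 6 genes, the exception being LOC_Os07g22850, while it was the highest in 129 and the lowest in 291 of the 530 lower genes. Each gene's deviations from its genotype means over the 6 libraries were compared with the mean deviations of the other 5. Pearson's r ran from 0.91 for LOC_Os07g22850 to 0.99 for LOC_Os04g24530. These values describe libraries shared by all 6 genes and are dominated by the distance between knockdown replicates 1 and 2.

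**Figure D3:**
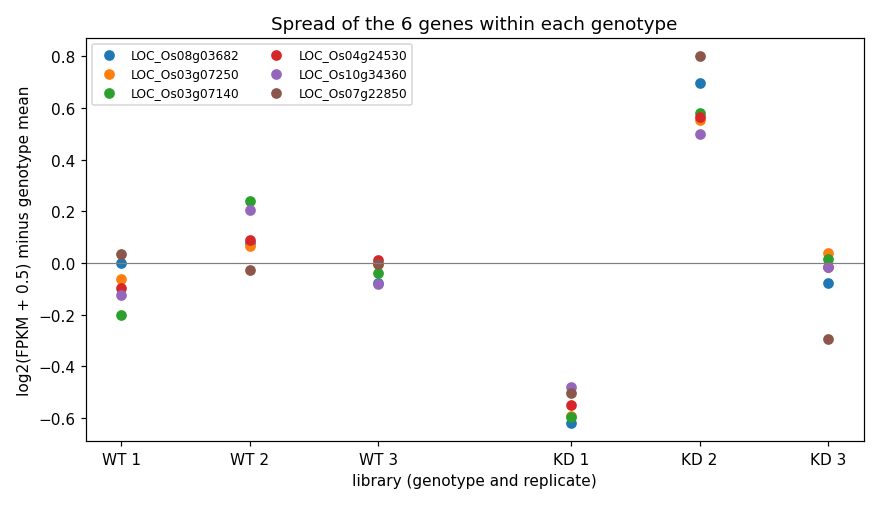
Deviation of each of the 6 genes (colours) from its own genotype mean, on the log2(FPKM + 0.5) scale, in each wild type (WT) and knockdown (KD) library. Wild type points lie within -0.20 and 0.24, whereas knockdown points reach from -0.62 in replicate 1 to 0.80 in replicate 2.

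By wild type mean the 6 genes ranked 1, 2, 4, 7, 12 and 22 among the 530 genes listed as lower. Of the 30 lower genes above 100 FPKM in wild type 6 were these genes, and of the 9 above 200 FPKM 4 were, whereas the higher list held 2 genes above 100 FPKM. Their changes in the authors' deposited table, on the log2 scale, ran from -1.58 to -1.01. The other 38 lower genes above 50 FPKM had a median of -1.31. Between these genes in level lay the lipid transfer family gene LOC_Os01g60740, with means of 418 FPKM in wild type, against 184 FPKM in the knockdown. Also between them lay LOC_Os08g40440, with means of 336 and 100.007 FPKM, and LOC_Os01g03670, with 310.0 and 109.4 FPKM. Both are described as dihydroflavonol-4-reductases, and what their enzymes act on was not tested.

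**Figure D4:**
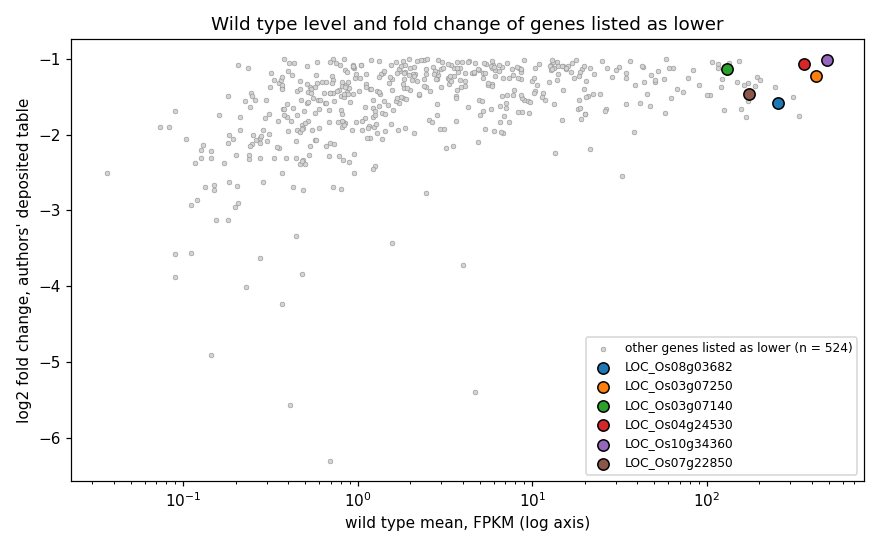
Wild type mean in FPKM (log axis) against the log2 fold change of the authors' deposited table for the 530 genes listed as lower, with the 6 genes in colour and the other 524 in grey. The 6 lie at the right edge, from 130.9 to 491 FPKM, between -1.58 and -1.01 on an axis that reaches to -6.30. The median of the 530 genes was -1.44, and LOC_Os08g03682 and LOC_Os07g22850 lie below it.

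The listed genes most like the 6 were ranked by the correlation of their within-genotype deviations with the mean deviations of the 6, over the same 6 libraries, among 537 other listed genes with a mean of at least 1 FPKM. The closest was LOC_Os06g40550 (r = 0.998), an ABC-2 type transporter gene, at 32.4, 37.3 and 32.99 FPKM in wild type, against 9.21, 20.3 and 13.4 FPKM in the knockdown. It was followed by LOC_Os07g37090 (r = 0.997), described as a ribosome inactivating protein, with 203 ± 21.7 against 83.9 ± 35.7 FPKM (SD, n = 3). LOC_Os02g01190 (r = 0.996), of the pollen Ole e I allergen and extensin family, had 187.6 ± 20.1 against 73.0 ± 35.8 FPKM. LOC_Os04g33150 (r = 0.993), described as a desiccation-related protein, had 193 ± 17.0 against 81.7 ± 30.8 FPKM. LOC_Os02g18750 (r = 0.986), without a functional description, had 7.83 ± 0.29 against 2.94 ± 1.71 FPKM. All 5 were listed as lower. In all, 35 of the 537 genes had r above 0.9, of which 31 were listed as lower and 4 as higher, and the median r was 0.54 over the 280 lower genes and -0.51 over the 257 higher genes so compared.

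Of 8 further loci of sporopollenin and anther lipid synthesis, export and deposition, chosen from general knowledge of rice, 4 were listed as lower, none as higher, and 4 were in neither list. No gene table was at hand to check the IDs, so a locus on this list, whether found as lower or not, may be a mistaken ID. The transporter gene LOC_Os06g40550 was among the 4, listed in the authors' deposited table with -1.26 on the log2 scale (adjusted p = 6.87e-07). LOC_Os09g32020 carries a description that is not of this pathway, ubiquitin fusion degradation protein, so its place among the 4 is uncertain. It stood at 168.8, 188.6 and 157.5 FPKM in wild type, against 39.3, 98.0 and 37.7 FPKM in the knockdown (log2 fold change -1.56, authors' deposited table). LOC_Os03g15710, described as a strictosidine synthase, stood at 42.7, 47.4 and 40.7 FPKM in wild type, against 13.4, 27.0 and 12.7 FPKM in the knockdown (log2 fold change -1.30, authors' deposited table). In all 4 the knockdown libraries lay below the wild type libraries, and replicate 2 had the highest knockdown value, which over all genes listed as lower held in 89.1% and 67.2%. Of all listed genes 45.1% were in the lower list.

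Of 10 loci taken as tapetum markers, 4 were listed. All 4 were lower, as were 45.1% of all listed genes. Among the 4, the aspartic proteinase gene LOC_Os04g37570 had the largest change, -1.97 in the authors' deposited table. The PHD-finger gene LOC_Os09g27620 followed with -1.72 and the MYB gene LOC_Os04g39470 with -1.29. The summed level of the 4 was 63.9 to 70.1 FPKM in the wild type libraries and 15.04 to 32.8 FPKM in the knockdown libraries. The other 6 marker loci were in neither list. The tapetum loci and the meiocyte loci below were also chosen from general knowledge, so any of these IDs may be mistaken. Of the 4 listed tapetum loci, 2 had the knockdown library order of the 6 genes, against 33.4% of all genes listed as lower. The part of these markers in the result was not tested. Of 6 meiocyte loci, 1 was listed as lower: LOC_Os04g37960, described as a synaptonemal complex protein, at 0.37, 0.24 and 0.34 FPKM in wild type, against 0.12, 0.19 and 0.10 FPKM in the knockdown. Listed genes with a core histone or cyclin description, taken as marks of dividing cells, were lower in 8 of 8 cases. Of all listed genes 45.1% were lower. The word match also took in LOC_Os10g06800, described as a cyclin-dependent kinase. The genes described as cyclins had wild type means of only 0.26 to 0.60 FPKM. Most of the summed level came from the histone genes LOC_Os08g38300 and LOC_Os05g02300, with wild type means of 50.79 and 22.55 FPKM. The sum was 42.4 to 106.3 FPKM in wild type and 21.5 to 44.2 FPKM in the knockdown. These ranges overlapped. The 2 listed MADS genes were lower, and the 1 listed gene of green tissue, the chlorophyll A-B binding protein gene LOC_Os01g64960, was higher, at 25.2, 23.0 and 11.4 FPKM in wild type, against 49.4, 29.5 and 69.7 FPKM in the knockdown. Nor was the part of these other markers tested.

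Relatives of the 6 by description did not share their direction throughout. Besides the 2 P450 genes above, 13 listed cytochrome P450 genes were higher and 2 lower in the knockdown. The largest changes among them were those of LOC_Os08g01520, LOC_Os02g36070 and LOC_Os06g19070. LOC_Os08g01520 stood at 0 FPKM in every wild type library, against 0.24, 0.06 and 0.16 FPKM in the knockdown. LOC_Os02g36070 fell from 5.66, 2.99 and 5.47 FPKM to 0.23, 0.02 and 0.06 FPKM. LOC_Os06g19070 rose from 0.33, 0.66 and 0.41 FPKM to 3.84, 2.70 and 2.75 FPKM. The 13 higher P450 genes had wild type means of 0 to 3.40 FPKM, whereas the lower LOC_Os08g05620 had 34.5 FPKM. Of all 1174 listed genes 644 were higher. The other 3 listed chalcone or stilbene synthase genes were all higher, at low levels. LOC_Os11g35930 went from 0.75, 0.51 and 0.51 FPKM to 1.46, 1.42 and 1.71 FPKM and LOC_Os11g32580 from 0.03, 0.02 and 0 FPKM to 0.15, 0.13 and 0.27 FPKM. For LOC_Os07g34260, knockdown replicate 1 alone exceeded every wild type library: the gene stood at 0.10, 0.03 and 0.03 FPKM in wild type, against 13.7, 0 and 0.06 FPKM in knockdown replicates 1 to 3.

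A further male sterility protein gene, LOC_Os08g20200, was lower, at 9.22, 12.7 and 9.88 FPKM in wild type, against 2.52, 5.78 and 4.21 FPKM in the knockdown. It kept the library order of the 6. A second one, LOC_Os04g28620, was higher, at 3.31, 5.14 and 1.64 against 9.79, 6.01 and 12.6 FPKM. Of the other AMP-binding genes LOC_Os08g14760 was higher, at 1.68, 1.86 and 1.36 against 4.37, 3.01 and 5.35 FPKM, and LOC_Os10g42800 lower, at 0.48, 0.31 and 0.60 against 0.20, 0.22 and 0.13 FPKM.

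Genes with other lipid descriptions were split, where 45.1% of all listed genes were lower. Of the listed lipid transfer genes 14 were lower and 7 higher. Knockdown replicate 2 was the highest knockdown library in 13 of the 14 and the lowest in all 7, and 7 of the 14 kept all knockdown libraries below all wild type libraries. Over all genes listed as lower, knockdown replicate 2 was the highest in 67.2% and the genotypes did not overlap in 89.1%. Of the GDSL and other lipase genes 2 were lower and 6 higher. Among the other genes with an acyl or fatty acid description 4 were lower and 2 higher. The 4 lower were described as a 3-oxoacyl-reductase and an acyl-desaturase, both chloroplast precursors, a glycerol-3-phosphate acyltransferase and a diacylglycerol kinase. The 2 higher, LOC_Os02g37780 and LOC_Os02g37770, both described as lecithin cholesterol acyltransferases, rose by 2.42 and 2.24 on the log2 scale in the authors' deposited table. The 1 listed gene with a wax or cuticle description, LOC_Os02g56920, described as WAX2, was lower with overlap, at 8.82, 4.38 and 11.3 FPKM in wild type, against 2.83, 6.05 and 2.44 FPKM in the knockdown.

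**Figure D5:**
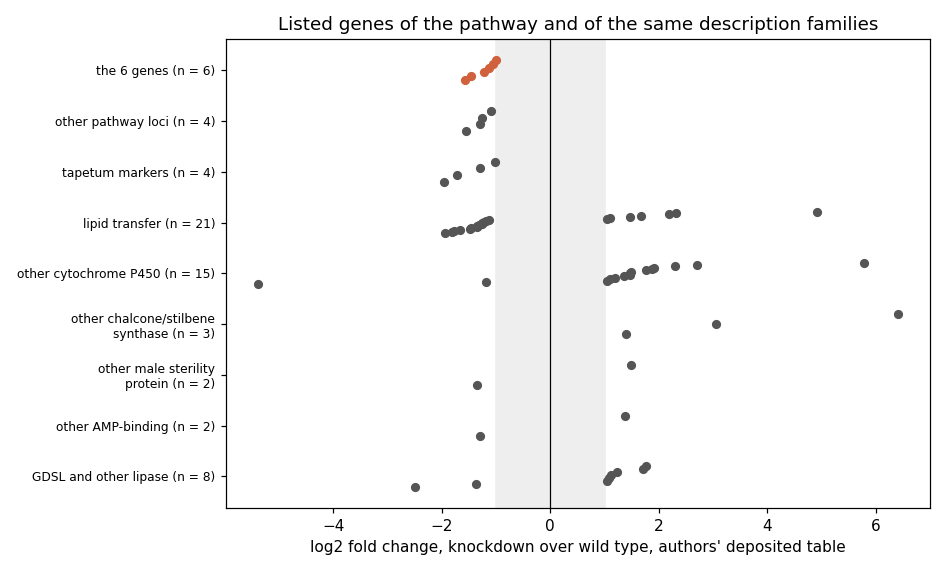
Deposited log2 fold change, knockdown relative to wild type, from the authors' deposited table (horizontal axis) for the 6 genes (orange) and for listed genes of other groups (grey), 1 point per gene, spread vertically only for legibility. The shaded band from -1 to 1 holds no gene because the lists have a minimum there; the 6 genes and the other pathway loci lie to its left, whereas the other cytochrome P450 genes lie mostly to its right.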

How the data were processed

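Young panicle mRNA was sequenced in 3 libraries of each genotype. The submitters' processing notes name edgeR, Bowtie 1.1.2 and TopHat2 2.1.0; which step each served, the genome build and the treatment of multiply matching reads are not stated in the sources used here. Per the file headers, the authors' lists of changed genes hold FPKM values (to 2 decimals), a log2 fold change, a p-value and an FDR. The base of the fold change was checked against FPKM: over 369 genes above 1 FPKM it differed from the log2 ratio of means by at most 0.0326. The authors also deposited small RNA signal (RPTM) in windows of 500 bases, used only to look for windows in the 6 loci. mRNA read depth is unknown, so counting error could not be given.

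Only listed genes were held, so no test across the genome was possible. A re-test of the lists used limma 3.58.1 (R 4.3.3) on log2(FPKM + 0.5), two-sided, without a filter or block, with Benjamini-Hochberg adjustment over all 1174 genes and a threshold of 0.05; fold changes on that scale understate changes of low genes. Simulated data for this comparison, with 1174 genes, were tested first: 41% of genes shifted by 1 log2 unit and 83% of genes shifted by 2 were recovered, and 0.719% of unshifted genes were called. Ratios were tested with exact permutation in SciPy 1.17.1. The reference gene table held 0 of the listed IDs, so genes carry locus IDs and the descriptions of the files, and no sequence is shown.

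The 6 genes, the lists and the tests were chosen with earlier results of these data known. Named genes were the 6, up to 3 listed genes per further list by largest absolute deposited log2 fold change, the 5 genes most alike, and neighbours in the ranking of wild type level. Small lists and genes standing out in a sentence were named after their values were seen. Same-numbered libraries were not treated as pairs. Alternatives were pseudocounts of 0.1 and 1, the lowest 25% of genes left out, a replicate block, each library left out, stricter limits, and, chosen after seeing the data, replicate 2 of both genotypes left out.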

Additional observations from a re-analysis of the deposited data

How the results depend on the processing

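The 6 genes kept a negative change under every alternative run. The number passing the limma re-test was 6 with pseudocounts of 0.1 and 1, without the lowest 25% of genes, with the replicate block and without replicate 2 of both genotypes, and 3 to 6 with each library left out. Their median log2 change ran from -1.53 to -0.95 with a library left out. None (0) of the 6 had an absolute deposited log2 fold change of at least 2, and all 6 had a deposited FDR of at most 0.01. Over all listed genes 997 passed (84.9%), 630 with the replicate block and 629 to 1028 with a library left out; the counts without wild type replicate 3, knockdown replicate 1 and knockdown replicate 3 were 629, 653 and 659. The cause was not tested. Over all 1174 listed genes, deviations of same-numbered libraries had r of -0.04, -0.53 and -0.43 for replicates 1 to 3. They did not go the same way, so the numbers were not taken as pairs. The 6 genes alone differed from this. Their mean log2 deviations in replicates 1 to 3 were -0.08, 0.11 and -0.03 in wild type and -0.56, 0.62 and -0.06 in the knockdown. Whether same-numbered libraries belong together was not tested. The log2 difference of the cytochrome P450 ratio stayed between -0.45 and -0.32 and that of the polyketide synthase ratio between -0.68 and -0.38 with a library left out. Read depth is unknown, and 3 libraries a group limit the exact tests to p = 0.10.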

Other observations

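None of the listed small RNA windows, 11 for 21-nt and 113 for 24-nt siRNA, was assigned to any of the 6 loci (0 windows of either size); windows outside those lists were not analysed here. By locus number, which follows gene order along a chromosome, LOC_Os03g07140 and LOC_Os03g07250 lie 110 apart on chromosome 3, with no listed gene between them, and LOC_Os10g34360 lies 70 from the targeted Dicer gene LOC_Os10g34430 on chromosome 10. The other 3 loci are on chromosomes 4, 7 and 8.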
